A study of Mus musculus with 6 samples.

Results

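The mitochondrially encoded genes are the 37 rows of the deposited adult brain table whose gene name begins with mt-, out of 53801 rows in all. No measured value enters this rule, and the members comprise 13 mRNA genes, 2 rRNA genes and 22 tRNA genes, all on the mitochondrial chromosome (chrM) of GRCm38. Read counts came from the brains of 3 Bahd1-WT mice (Bahd1+/+) and 3 Bahd1-KO mice (Bahd1-/-), both of strain C57BL/6 and about 70 weeks old. BAHD1 is a nuclear protein that takes part in heterochromatin formation, and the comparison asks how RNA levels differ when both copies of its gene are inactivated in every cell. The study used males, and the Bahd1-KO animals came from crosses of heterozygotes. RNA was taken from 1 hemisphere of each mouse, column-purified in a way that removes molecules under 200 nucleotides, selected for poly(A) and made into stranded libraries.

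Mitochondrial DNA carries genes for core subunits of the respiratory chain and ATP synthase, and for the rRNAs and tRNAs with which mitochondria translate them. Each strand is transcribed into long precursors, and the tRNAs that lie between the other genes are cut out, which frees the mRNAs and rRNAs, most of which then receive short poly(A) tails. The neuron-rich brain depends heavily on oxidative phosphorylation, and every other protein of that system, including the RNA polymerase and the ribosomal proteins of mitochondria, is made from nuclear genes. Stretches of mitochondrial DNA have also been copied into nuclear chromosomes over evolution, and such a copy can be indistinguishable from its source in a short read.

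Libraries held 42297150 to 93557948 counts, and Bahd1 itself had 1383, 844 and 1099 counts in Bahd1-WT 1, 2 and 3 and 0, 14 and 1 in Bahd1-KO 1, 2 and 3. Brain cell markers were present in every library. The library Bahd1-KO 2 stood apart. Its median deviation from the mean of the 6 libraries was -0.72 on the log2 scale over 907 nuclear genes with a GC content under 40%, and 1.10 over 2880 genes above 55%. The same medians were 0.06 and -0.04 in Bahd1-KO 1, -0.24 and 0.41 in Bahd1-KO 3, and 0.25 to 0.38 and -0.70 to -0.29 in the Bahd1-WT libraries, so the trend with base composition ran in opposite directions in Bahd1-WT and in Bahd1-KO 2 and 3. Mitochondrial genes are poor in GC, with a median of 36.9% over the members tested against 48.7% over all genes tested. For this reason the results are also given with an offset per library fitted on the GC content and length of nuclear genes. Markers of other tissues differed too. The summed level of 5 lung epithelium markers was 2.33 to 103 CPM (counts scaled to a common library size by TMM) in Bahd1-WT and 0.529 to 1.83 CPM in Bahd1-KO, while 4 skeletal muscle markers summed to 0.810 to 1.33 CPM and 1.68 to 8.70 CPM. The sum of 5 red cell markers was 10.8 to 15.9 CPM and 15.1 to 92.6 CPM, with 4 of the 5 higher at an unadjusted p under 0.05, against 19.9% of all genes. The sum of 4 choroid plexus markers was 249.9 to 343 CPM and 433 to 1055 CPM, of which Ttr made up the most, and the log2 fold changes of Ttr, Folr1, Kcnj13 and Clic6 were 1.29, 0.66, -0.39 and -0.11. Within the brain lists single markers differed too, among them Tubb3 (neurons, log2 fold change 2.06), Mag (oligodendrocytes, 1.66), Tmem119 (microglia, 1.37) and Cldn5 (endothelial cells, 2.56), named after their values were seen, and after the offset these were 0.78, 0.48, 0.15 and 0.85. No marker of these lists was at 0 in all libraries, and their part in the mitochondrial values was not tested.

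Many members share long stretches of sequence with nuclear pseudogenes, so the start of 2 mRNA genes is shown beside such copies. These are the first 100 bases of mt-Nd3, a complex I subunit gene (chrM:9459-9558, plus strand), and of Gm28438 (chr1:24613020-24613119, minus strand), then of mt-Co2, a complex IV subunit gene (chrM:7013-7112, plus strand), and of its copies Gm28661 (chr1:24615466-24615565, minus strand) and Gm13341 (chr2:22587863-22587962, minus strand), from the GENCODE M21 transcripts of GRCm38. Capitals mark the base that differs between mt-Nd3 and Gm28438, in both, and the bases of Gm13341 that differ from mt-Co2.
mt-Nd3: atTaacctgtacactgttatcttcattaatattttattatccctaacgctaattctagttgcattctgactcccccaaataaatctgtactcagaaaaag
Gm28438: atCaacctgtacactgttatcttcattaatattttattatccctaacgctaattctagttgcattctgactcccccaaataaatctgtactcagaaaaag
mt-Co2: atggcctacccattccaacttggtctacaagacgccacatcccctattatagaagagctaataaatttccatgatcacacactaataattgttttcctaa
Gm28661: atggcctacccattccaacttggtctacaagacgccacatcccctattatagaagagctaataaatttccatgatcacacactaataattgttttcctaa
Gm13341: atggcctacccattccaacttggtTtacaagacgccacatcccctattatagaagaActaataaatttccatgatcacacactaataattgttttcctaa
Gm28438 carried the substitution T9461C relative to mt-Nd3, where the position is that of mt-Nd3 on chrM. Gm13341 carried C7037T and G7069A relative to mt-Co2 in this stretch, and Gm28661 carried 0 differences.

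The chromosome 1 copies form 1 run of minus-strand pseudogenes. Over their aligned lengths, Gm28661 (mt-Co2), Gm10925 (mt-Atp6), Gm28437 (mt-Co3), Gm10222 (mt-Nd4l) and Gm28439 (mt-Nd4) were 100% identical to the member. A window of 65 bases, the length of the single-end reads in the methods, was looked up at every position of each member in all annotated nuclear transcripts. The windows found there were 617 of 620 in mt-Co2 (99.5%), 614 of 617 in mt-Atp6 (99.5%), 719 of 720 in mt-Co3 (99.9%), 278 of 284 in mt-Nd3 (97.9%) and 230 of 233 in mt-Nd4l (98.7%). The share was 61.8% in mt-Nd4, 44.3% in mt-Co1, 6.67% in mt-Nd2 and 3.13% in mt-Nd5. No window of mt-Nd1, mt-Cytb, mt-Nd6 or mt-Rnr1 was found in a nuclear transcript, and 1 window of mt-Rnr2 was.

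The mRNA genes fell into 2 sets by level. The 7 genes mt-Nd1, mt-Nd2, mt-Nd4, mt-Nd5, mt-Nd6, mt-Cytb and mt-Co1 had 2925 to 3530205 counts in each library. The other 6, which encode complex IV subunits (mt-Co2, mt-Co3), ATP synthase subunits (mt-Atp6, mt-Atp8) and complex I subunits (mt-Nd3, mt-Nd4l), had almost none. mt-Co2 had 121, 2 and 2 counts in Bahd1-WT 1, 2 and 3 and 0, 1 and 0 in Bahd1-KO 1, 2 and 3. mt-Atp6 had 3, 1 and 1 counts and 0, 4 and 0, and mt-Nd3 had 0 in all 6 libraries, which allows up to 0.0315 to 0.0690 CPM of reads placed on that gene (3 counts, counting error only) and sets no limit on its RNA where reads also match Gm28438. Except for mt-Co2 in Bahd1-WT 1 and mt-Atp8 in Bahd1-WT 3, with 5 counts, and mt-Atp6 in Bahd1-KO 2, these genes were at or under 3 counts in each library. mt-Atp8 differs from the other 5 in sequence, since 0 of its 140 windows were found in an annotated nuclear transcript. The assembled nuclear genome was not searched here, and why mt-Atp8 had few counts was not tested. Any difference between genotypes in mt-Co2 rested on the 121 counts of Bahd1-WT 1. For the others, and hence the ATP synthase mRNAs as a group, differences were not detectable in these counts.

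**Figure D1:**
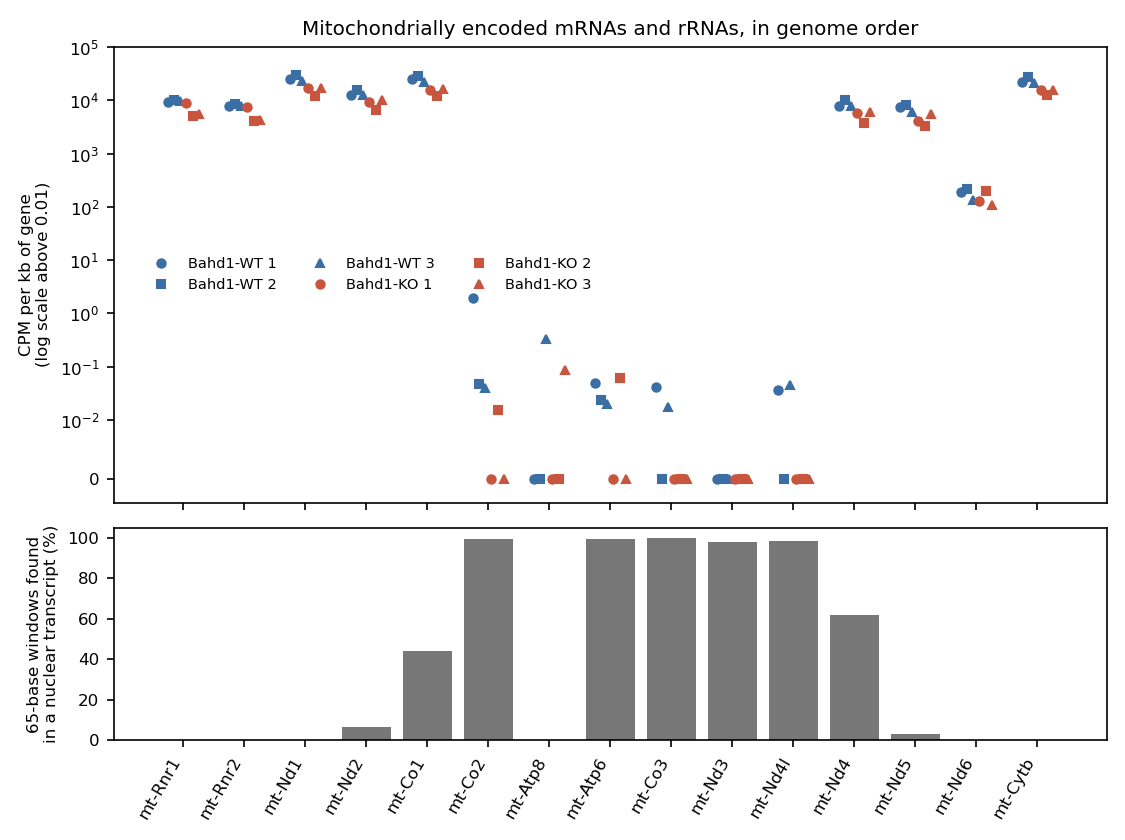
Upper panel, level of each mitochondrial mRNA and rRNA in each library in CPM per kb of gene (log scale above 0.01), with blue symbols for Bahd1-WT, red for Bahd1-KO and a symbol shape per replicate number. Lower panel, percentage of the 65-base windows of each gene that occur in an annotated nuclear transcript; 5 of the 6 near-absent mRNAs are at 97.9% to 99.9% and mt-Atp8 is at 0.

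The nuclear copies held few counts of their own. All 11 near-identical copies together (at least 95% identity over at least 200 bases) had 0.00835% to 0.0133% as many counts as the members. Few counts on a copy set no limit on its RNA where reads also match the member. The 5 with the most counts included Gm13340 (a copy of mt-Co1), for which the Bahd1-WT libraries had 626, 579 and 477 counts and the Bahd1-KO libraries 132, 320 and 252. Gm28438, whose source mt-Nd3 was at 0, had 421, 265 and 264 counts in Bahd1-WT and 122, 102 and 121 in Bahd1-KO. Gm13341 (mt-Co2) had 164, 145 and 143 counts in Bahd1-WT and 63, 69 and 64 in Bahd1-KO. Both Gm28438 and Gm13341 were lower in every Bahd1-KO library than in every Bahd1-WT library, as was Gm13340, in counts and also in CPM. In CPM this held for 19.3% of all genes tested. The log2 fold changes of Gm28438, Gm13341 and Gm13340 were -1.08 ± 0.34, -0.91 ± 0.30 and -1.08 ± 0.24 (SE, edgeR adjusted p = 0.0829, 0.0878 and 0.0634). After the offset they were -0.76, -0.56 and -0.56 (edgeR adjusted p = 0.127, 0.172 and 0.248). Gm10925 (mt-Atp6) had 140, 11 and 148 counts against 50, 8 and 49, with low values in the libraries numbered 2 of both genotypes. Gm28437 (mt-Co3) had 276, 6 and 20 against 1, 8 and 10, so that its fold change rested on Bahd1-WT 1, which also held nearly all counts of mt-Co2. Whether a read on such a copy came from the nucleus or from mitochondria cannot be told apart in counts per gene.

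Among the 7 mRNAs with counts, levels per length differed widely. In Bahd1-WT, mt-Nd1 (complex I) was at 25754 ± 3917 CPM per kb (SD, n = 3), mt-Co1 (the catalytic subunit of complex IV) at 24979 ± 3319 and mt-Cytb (complex III) at 23296 ± 3115. Their ranges over the 3 mice overlapped, with mt-Cytb the lowest of the 3 in each Bahd1-WT library. The complex I mRNAs mt-Nd2, mt-Nd4 and mt-Nd5 followed with 13660 ± 1675, 8582 ± 1233 and 7230 ± 996 CPM per kb, with mt-Nd4 above mt-Nd5 in each Bahd1-WT library. In these libraries, selected for poly(A), mt-Nd6, a complex I subunit and the only mRNA coded on the minus strand, was far below them at 178 ± 42.1 CPM per kb. How evenly the selection captured the mRNAs was not tested. Part of mt-Co1 and mt-Nd4 could not be counted uniquely. Per kb of window positions not shared with a nuclear transcript, mean levels in Bahd1-WT were 46779 CPM for mt-Co1, 27599 for mt-Nd1, 24677 for mt-Cytb, 23557 for mt-Nd4, 15598 for mt-Nd2 and 7735 for mt-Nd5. On that scale the order was mt-Co1, mt-Nd1, mt-Cytb, mt-Nd4, mt-Nd2, mt-Nd5 and mt-Nd6 in all libraries but Bahd1-KO 2, where mt-Cytb and mt-Nd1 changed places.

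In Bahd1-KO brains the level of mitochondrial mRNA was lower in every mouse. The mRNAs summed to 125250, 148084 and 114190 CPM in Bahd1-WT 1, 2 and 3 and to 82209, 62173 and 87996 CPM in Bahd1-KO 1, 2 and 3. The groups did not overlap, and the mean of the Bahd1-KO libraries on the log2 scale lay 0.75 below that of Bahd1-WT, or at 59.7% of its level (exact two-sided permutation test, p = 0.1, adjusted p = 0.15 over 3 classes). With 3 samples against 3 this test cannot give a p under 0.1. As a share of all counts of a library, mitochondrial mRNA was 12.6% ± 1.46 (SD, n = 3) in Bahd1-WT and 7.96% ± 1.45 in Bahd1-KO, and all members together were 14.7% ± 1.50 and 9.45% ± 1.72. The log2 difference of the mRNA sum was -0.59 without the library Bahd1-KO 2. After the GC and length offset it became -0.24, a value with no test. In bulk tissue, fewer cells rich in mitochondria and less mitochondrial RNA per cell cannot be told apart.

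The rRNAs followed with a less even pattern. mt-Rnr1 and mt-Rnr2, the small and large subunit rRNAs of the mitochondrial ribosome, summed to 21250, 23354 and 21824 CPM in Bahd1-WT and to 20161, 11131 and 12115 CPM in Bahd1-KO. Bahd1-KO 1 sat just under the Bahd1-WT range, while Bahd1-KO 2 and 3 were far below it. The log2 difference was -0.66 (exact permutation p = 0.1, adjusted p = 0.15), -0.50 without Bahd1-KO 2, -0.93 without Bahd1-KO 1 and -0.10 with the offset. The tRNAs, which are shorter than the size the purification retains, summed to only 23.9, 23.1 and 21.7 CPM in Bahd1-WT and 22.0, 11.1 and 16.2 CPM in Bahd1-KO. Their groups overlapped, with a log2 difference of -0.53 (exact permutation p = 0.2, adjusted p = 0.2) of -0.28 without Bahd1-KO 2 and of -0.42 with the offset.

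**Figure D2:**
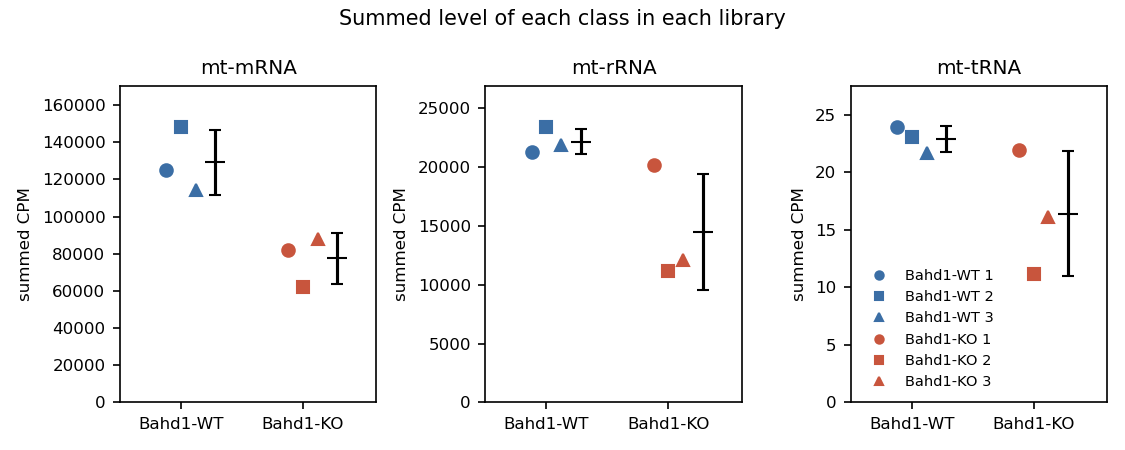
Summed level in CPM of the mitochondrial mRNAs, rRNAs and tRNAs in each library, with the mean and SD of 3 libraries beside the points. All 3 Bahd1-KO libraries lie below the Bahd1-WT libraries for mRNA, and Bahd1-KO 1 lies at or near the Bahd1-WT range for rRNA (20161 CPM) and tRNA (22.0 CPM).

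Gene by gene, 20 of the 37 members had a sum of at least 10 counts and were tested, namely 8 mRNAs, both rRNAs and 10 tRNAs. Of the other 17 members, 10 were at 0 in all libraries. None of the 20 was a differentially expressed gene (adjusted p under 0.05 and at least 2-fold) in edgeR, where 0.00834% of the 23975 genes tested were, which is 2 genes. At an unadjusted p under 0.05, 11 of the 20 were lower in Bahd1-KO (7 mRNAs, both rRNAs and 2 tRNAs), against 12% of all genes. Every Bahd1-KO library was below every Bahd1-WT library for 13 of the 20, against 19.3% of all genes. DESeq2's Wald test gave an adjusted p under 0.05 and a lower level for 6, all of them mRNAs, against 2.87% of all genes. After the offset 3 of the 20 were lower at an unadjusted p under 0.05 (mt-Co2, mt-Tm and mt-Tt), against 11.7% of all genes. mt-Co2 passed the filter only through 121 counts in Bahd1-WT 1, the genotype in which it was higher. Without it the counts were 10, 12 and 2 of 19 for an unadjusted p, for separated groups and after the offset, with 6 mRNAs among the 10. The median log2 fold change over the members tested was -0.72 (-0.06 over all genes) and became -0.25 with the offset (-0.06 over all genes), or -0.68 and -0.22 without mt-Co2. Single libraries weighed on these counts. Without Bahd1-KO 1, 9 members were lower at an adjusted p under 0.05 in edgeR, among them both rRNAs, against 10.3% of all genes in that fit. The number lower at an unadjusted p under 0.05 was 7 without Bahd1-WT 1, against 6.13% of all genes, and 7 without Bahd1-KO 3, against 8.93%.

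mt-Co1 had the lowest p among the members. Its level was 38576, 43729 and 33472 CPM in Bahd1-WT 1, 2 and 3 and 23643, 18467 and 24786 CPM in Bahd1-KO 1, 2 and 3. Every Bahd1-KO library was below the lowest Bahd1-WT library, with Bahd1-KO 2 the lowest. The log2 fold change was -0.79 ± 0.19 (SE, edgeR adjusted p = 0.0634), with an adjusted p of 0.00587 in DESeq2 and a log2 fold change of -0.32 ± 0.16 (edgeR adjusted p = 0.281) with the offset.

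The same order of libraries was seen in mt-Cytb and in the complex I mRNAs. mt-Cytb, the only mitochondrially encoded subunit of complex III, was at 25274, 30698 and 23982 CPM in Bahd1-WT and 17761, 14425 and 18185 CPM in Bahd1-KO (log2 fold change -0.67 ± 0.18, edgeR adjusted p = 0.0650). mt-Nd1 was at 23574, 28814 and 21551 CPM in Bahd1-WT and 16113, 11380 and 16302 CPM in Bahd1-KO (log2 fold change -0.76 ± 0.21, edgeR adjusted p = 0.0650). In both, Bahd1-WT 2 was highest, Bahd1-KO 2 lowest, and the groups were apart. mt-Nd2 was at 13238, 16185 and 13114 CPM against 9468, 6773 and 10291 CPM, a log2 fold change of -0.68 ± 0.20 (edgeR adjusted p = 0.0733). mt-Nd4 was at 10885, 13787 and 10804 CPM against 7836, 5066 and 8134 CPM, a log2 fold change of -0.75 ± 0.22 (edgeR adjusted p = 0.0706). mt-Nd5 was at 13605, 14759 and 11199 CPM against 7322, 5961 and 10242 CPM, a log2 fold change of -0.75 ± 0.23 (edgeR adjusted p = 0.0758). For mt-Nd5 the gap between the groups was narrow, with 10242 CPM in Bahd1-KO 3 beside 11199 CPM in Bahd1-WT 3. With the offset the log2 fold changes of these 5 mRNAs were -0.21, -0.28, -0.13, -0.17 and -0.15 in the order given, with edgeR adjusted p from 0.359 to 0.745.

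In the library Bahd1-KO 2, mt-Nd6 did not follow the other mRNAs with counts. Its level was 96.7, 112 and 68.8 CPM in Bahd1-WT and 67.2, 101 and 56.3 CPM in Bahd1-KO, and the groups overlapped because Bahd1-KO 2, the lowest library for every plus-strand mRNA with counts, was here the highest of its genotype. The log2 fold change was -0.31 ± 0.26 (edgeR adjusted p = 0.426) and 0.21 ± 0.29 with the offset (adjusted p = 0.729). Leaving out 1 library moved it between -0.59, without Bahd1-KO 2, and -0.12, without Bahd1-KO 3. mt-Co2, with a fitted log2 fold change of -6.14 (-5.82 with the offset, edgeR adjusted p = 0.0837 and 0.141), was tested only through the 121 counts of Bahd1-WT 1 and failed the filter without that library. mt-Rnr1 was at 8906, 9841 and 9371 CPM in Bahd1-WT and 8466, 4770 and 5260 CPM in Bahd1-KO (log2 fold change -0.60 ± 0.23, edgeR adjusted p = 0.119). mt-Rnr2 was at 12345, 13513 and 12453 CPM and 11695, 6362 and 6855 CPM (log2 fold change -0.62 ± 0.24, edgeR adjusted p = 0.126). Without Bahd1-KO 1 both rRNAs had an edgeR adjusted p under 0.05, at 0.00693 and 0.00599, and after the offset their log2 fold changes were -0.14 and -0.07.

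**Figure D3:**
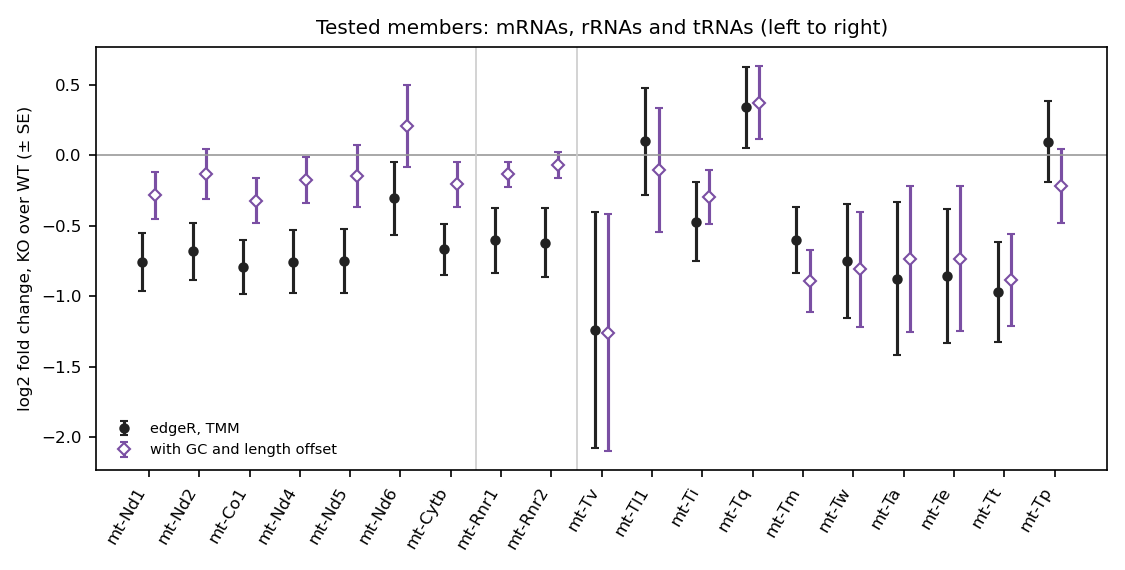
Log2 fold change of Bahd1-KO over Bahd1-WT with its SE for 19 tested members, without (filled) and with (open) the GC and length offset; mt-Co2 is left out because its value rests on 1 library. The mRNAs other than mt-Nd6 lie between -0.79 and -0.67 without the offset and between -0.32 and -0.13 with it, while the tRNAs move less.

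tRNA counts were few and uneven. Of 8162 tRNA counts in the 6 libraries, 7271 (89.1%) fell on mt-Ti, mt-Tm and mt-Tw, the tRNAs for isoleucine, methionine and tryptophan. mt-Tm and mt-Tw flank mt-Nd2, and mt-Ti adjoins the end of mt-Nd1. Their gene sequences are shown because they carried the tRNA signal; capitals mark the anticodon as DNA, at mt-Ti chrM:3706-3774, mt-Tm chrM:3845-3913 and mt-Tw chrM:4950-5016, all on the plus strand.
mt-Ti: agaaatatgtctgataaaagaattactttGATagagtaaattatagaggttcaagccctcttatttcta
mt-Tm: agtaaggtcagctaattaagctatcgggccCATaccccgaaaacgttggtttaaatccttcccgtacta
mt-Tw: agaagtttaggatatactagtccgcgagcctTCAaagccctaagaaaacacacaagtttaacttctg
The end of mt-Nd1 (base 3707) overlaps the start of mt-Ti, and the end of mt-Nd2 (base 4951) overlaps that of mt-Tw, so a read across these borders has no single gene. The gene lengths of the 22 tRNAs were 59 to 75 bases, close to a read's length, and whether a read on them came from a mature tRNA or from an unprocessed precursor was not tested.

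mt-Ti was at 15.0, 15.4 and 14.3 CPM in Bahd1-WT 1, 2 and 3 and 15.4, 6.98 and 9.88 CPM in Bahd1-KO 1, 2 and 3. Bahd1-KO 1 was as high as the highest Bahd1-WT library (log2 fold change -0.47 ± 0.28, edgeR adjusted p = 0.266). That value was -0.24 without Bahd1-KO 2, -0.80 without Bahd1-KO 1 (edgeR adjusted p = 0.0246) and -0.30 with the offset. mt-Tm was at 4.40, 3.22 and 3.29 CPM in Bahd1-WT and 2.62, 2.08 and 2.52 CPM in Bahd1-KO, without overlap (log2 fold change -0.60 ± 0.23, edgeR adjusted p = 0.124). mt-Tw was at 2.25, 2.06 and 1.94 CPM against 1.52, 0.515 and 1.73 CPM, also without overlap, with Bahd1-KO 2 far below the rest (log2 fold change -0.75 ± 0.41, edgeR adjusted p = 0.227), and its log2 fold change was -0.36 without that library and -0.81 with the offset. mt-Tt, the threonine tRNA, was at 0.678, 0.891 and 0.573 CPM against 0.506, 0.231 and 0.380 CPM. Its groups did not overlap, and its log2 fold change was -0.97 ± 0.35 (edgeR adjusted p = 0.108) and -0.88 ± 0.33 with the offset (adjusted p = 0.167). With the offset mt-Tm was at -0.89 ± 0.22 (edgeR adjusted p = 0.0921), further from 0 than without it.

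The remaining tRNAs with a mean of at least 10 counts per library did not share this direction. mt-Tq (glutamine) was at 0.393, 0.453 and 0.368 CPM in Bahd1-WT and 0.644, 0.472 and 0.432 CPM in Bahd1-KO (log2 fold change 0.34 ± 0.29, edgeR adjusted p = 0.427, and 0.20 without Bahd1-KO 1 or 0.37 with the offset). mt-Tp (proline) was at 0.546, 0.486 and 0.559 CPM against 0.758, 0.483 and 0.484 CPM, and mt-Tl1 (a leucine tRNA) at 0.317, 0.308 and 0.395 CPM against 0.322, 0.231 and 0.553 CPM. All 3 overlapped between genotypes. The signs of mt-Tp and mt-Tl1 (log2 fold changes 0.10 and 0.10) turned with the offset, to -0.22 and -0.11, and also with upper-quartile factors. The other 15 tRNAs had 0 to 12 counts in any library, and 9 of them had 0 in all.

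**Figure D4:**
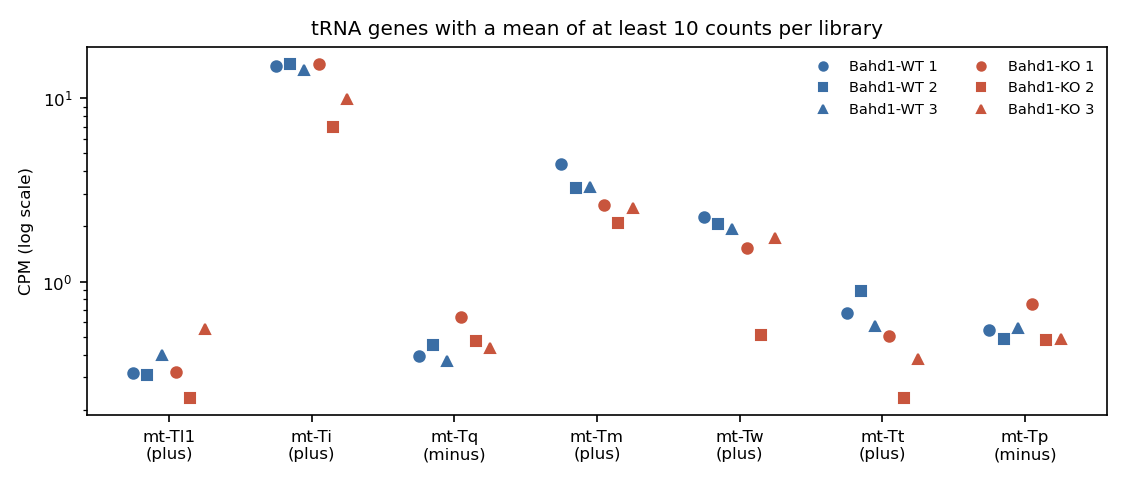
Level in CPM (log scale) of the 7 tRNA genes with a mean of at least 10 counts per library, one point per library, with the coding strand given as plus or minus strand of the reference. mt-Tm, mt-Tw and mt-Tt are lower in every Bahd1-KO library than in every Bahd1-WT library, and mt-Tq, mt-Tp and mt-Tl1 overlap.

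By coding strand, 11 of the 15 plus-strand members tested were lower at an unadjusted p under 0.05, and 0 of the 5 on the minus strand (mt-Nd6, mt-Tq, mt-Ta, mt-Te and mt-Tp), against the 12% of all genes given above. After the offset the numbers were 3 of 15 and 0 of 5, against 11.7% of all genes. Without mt-Co2 the plus-strand numbers were 10 of 14, and 2 of 14 after the offset. The 4 minus-strand tRNAs had few counts, whereas mt-Nd6 had 2925 to 9608 in each library, and the difference between strands was not tested. These tallies rest on how reads were assigned to strands in the counting, which was not checked. Set against the plus-strand mRNAs of the same library, mt-Nd6 had a ratio of 0.000773, 0.000756 and 0.000603 in Bahd1-WT and 0.000818, 0.00163 and 0.000641 in Bahd1-KO. Only Bahd1-KO 2 lay apart from the others. The log2 difference was 0.42 (exact permutation p = 0.4, adjusted p = 0.571 over 10 ratios), 0.04 without Bahd1-KO 2 and 0.44 with the offset.

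Within the mRNA pool the most abundant members kept similar proportions. mt-Co1 made up 29.9% ± 0.803 (SD, n = 3) of the mRNA counts in Bahd1-WT and 28.9% ± 0.775 in Bahd1-KO, mt-Cytb 20.6% ± 0.419 and 21.8% ± 1.28, and mt-Nd1 19.1% ± 0.354 and 18.8% ± 0.693. mt-Nd5 ran from 8.91% to 11.6% within Bahd1-KO, and mt-Nd6 was at 0.0710% ± 0.00934 and 0.103% ± 0.0524, with 0.162% in Bahd1-KO 2. The complex I, III and IV mRNAs as shares of all mitochondrial mRNA differed between genotypes by -0.01, 0.08 and -0.05 on the log2 scale (exact permutation p = 0.8, 0.3 and 0.3, adjusted p = 0.8, 0.5 and 0.5). rRNA to mRNA ratios were 0.170, 0.158 and 0.191 in Bahd1-WT and 0.245, 0.179 and 0.138 in Bahd1-KO. Bahd1-KO libraries lay above, within and below the Bahd1-WT range, a log2 difference of 0.08 (exact permutation p = 0.8, adjusted p = 0.8), which turned to -0.13 without Bahd1-KO 1. The tRNA to mRNA ratio differed by 0.21 (exact permutation p = 0.6, adjusted p = 0.75), by 0.0245 without Bahd1-KO 1 and by -0.18 with the offset.

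Against their nuclear partners the mitochondrial mRNAs were lower in Bahd1-KO. The summed counts of mitochondrial mRNA were 18.8, 21.8 and 15.5 times those of 71 nuclear-encoded subunits of complexes I, III, IV and V in Bahd1-WT 1, 2 and 3, and 9.40, 5.87 and 12.4 times in Bahd1-KO 1, 2 and 3. The groups did not overlap, with a log2 difference of -1.08 (exact permutation p = 0.1, the smallest this design gives, adjusted p = 0.25). By complex, the log2 difference of mitochondrial to nuclear subunit mRNA was -1.12 for complex I, -0.96 for complex III and -1.23 for complex IV (exact permutation p = 0.1 and adjusted p = 0.25 in each), and -0.33, -0.37 and -0.46 after the offset. Without Bahd1-KO 2 the pooled difference was -0.78, and after the offset it became -0.32. The nuclear subunit genes had a higher GC content, with list medians of 49.0% to 51.4%, and edgeR gave 0 of the 71 an adjusted p under 0.05. At an unadjusted p under 0.05, 34 were higher and 1 lower, against 19.9% and 12% of all genes, and 30 were higher and 10 lower after the offset, against 9.84% and 11.7%. With DESeq2's Wald test 27 were higher and 1 lower at an adjusted p under 0.05, against 14.3% and 2.87% of all genes.

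**Figure D5:**
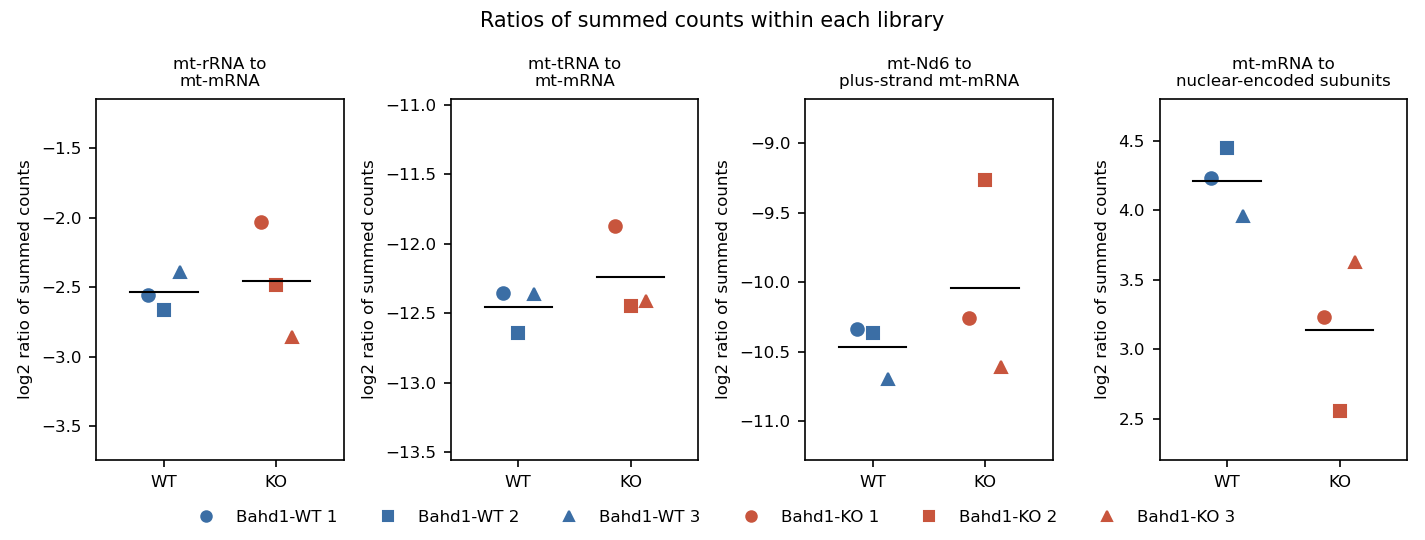
Log2 ratios of summed counts within each library, with a line at the mean of each genotype and the same axis span of 2.6 log2 units in the 4 panels. The ratio of mitochondrial mRNA to nuclear-encoded subunits is lower in all 3 Bahd1-KO libraries, while the rRNA to mRNA and tRNA to mRNA ratios overlap and Bahd1-KO 2 stands alone for mt-Nd6.

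Nuclear genes that copy, transcribe, process and translate mitochondrial DNA were measured in the same libraries. Of 82 genes in 6 lists, 81 were in the table and tested. None had an edgeR adjusted p under 0.05. At an unadjusted p under 0.05, 21 were higher and 9 lower, against 19.9% and 12% of all genes, and 13 were higher and 4 lower after the offset, against 9.84% and 11.7%. DESeq2's Wald test gave 19 with an adjusted p under 0.05, against 17.2% of all genes. Their median log2 fold change was -0.10 (-0.06 over all genes). Leaving out Bahd1-KO 1 raised the edgeR count from 0 to 33, in a fit where 30% of all genes had an adjusted p under 0.05.

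The 2 genes with the lowest p in each list, 12 in all, were at a higher mean in Bahd1-KO. Polrmt, the mitochondrial RNA polymerase, was at 4.14, 2.04 and 2.81 CPM in Bahd1-WT and 5.06, 30.1 and 11.0 CPM in Bahd1-KO (log2 fold change 2.36 ± 0.59, edgeR adjusted p = 0.0634). Esrra, an orphan nuclear receptor that regulates genes of oxidative metabolism, was at 3.26, 1.36 and 1.04 CPM and 6.62, 41.4 and 15.2 CPM (log2 fold change 3.48 ± 0.70, edgeR adjusted p = 0.0634). In both, the groups were apart and Bahd1-KO 2 was well above the other libraries. The same library was the highest for Top1mt (mitochondrial topoisomerase), Fastk and Ptcd1 (RNA-binding proteins of mitochondria), Aars2 and Sars2 (alanyl- and seryl-tRNA synthetases), Pus1 (a pseudouridine synthase), Mrm2 (an rRNA methyltransferase), Tufm and Tsfm (translation elongation factors) and Pprc1 (a coactivator), whose log2 fold changes ran from 0.76 to 2.33 with edgeR adjusted p of 0.0634 to 0.0705. The GC content of the 12 genes was 50.3% to 60.5%. With the offset their log2 fold changes were 0.01 to 0.81, except Esrra at 3.34. The 9 machinery genes that were lower at an unadjusted p under 0.05, named here after their values were seen, had log2 fold changes of -0.68 to -0.42, edgeR adjusted p of 0.0826 to 0.138 and a GC content of 39.6% to 44.4%. Of these, 5 were in the list of RNA processing and stability, whose median log2 fold change was -0.28 (-0.06 with the offset) and of which 4 of 21 were higher. They were Pnpt1 (polynucleotide phosphorylase), Pde12 (a phosphodiesterase that trims poly(A) tails), Ptcd3, Trmt10c (a subunit of mitochondrial RNase P) and Mtpap (the mitochondrial poly(A) polymerase). The other 4 were Nsun3 (a tRNA methyltransferase), Mtif2 (a translation initiation factor), Mterf3 and Ppargc1a (a transcriptional coactivator). With the offset the log2 fold changes of the 9 were -0.30 to 0.09. The libraries ranked by Polrmt as they did by the median of nuclear genes above 55% GC, and by Esrra likewise except that Bahd1-WT 2 and 3 changed places. By each of the 6 abundant plus-strand mRNAs they ranked as by the median of nuclear genes under 40% GC, except that Bahd1-KO 1 and 3 changed places. What part this trend had in either set of values, beyond the change seen with the offset, was not tested.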

How the data were processed

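RNA-seq read counts of 3 Bahd1-WT and 3 Bahd1-KO brains were used. The authors deposited these counts per gene as whole numbers without normalization. According to the methods and the submitters' processing notes, they trimmed reads with cutadapt 1.11, aligned them to GRCm38 with STAR 2.5.0a and counted exonic reads with featureCounts 1.4.6-p3. The supplementary methods also name a second aligner and another sequencing run, and reads with several equally good positions are not counted by featureCounts unless it is asked to, which bears on genes with nuclear copies. The mRNA, rRNA and tRNA classes, gene positions, lengths and GC content came from GENCODE M21.

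Genes whose counts over all 6 samples summed to at least 10 (23975) were fitted with edgeR 4.0.16 (TMM normalization, quasi-likelihood test, genotype only, R 4.3.3), with Benjamini-Hochberg adjustment over all of them. CPM values use TMM-scaled library sizes of the tested genes. DESeq2 1.42.0 was the alternative. Class sums and ratios within libraries were compared by exact two-sided permutation tests over samples (scipy 1.17.1). The offset was computed per library from natural splines, with 5 degrees of freedom for GC content and 3 for log length, fitted to log2 CPM of 13250 nuclear genes with a mean log2 CPM above 1. Class sums and ratios with the offset are level-weighted sums of fold changes. Nuclear copies were found with BLAST 2.17.0+ and by exact windows of 65 bases among annotated transcripts. The edgeR step was tested on simulated data.

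Depth was 42297150 to 93557948 counts per library. The floor of 3 counts covers counting error only. All members were described by class. Values by sample are given for the mRNAs, rRNAs and tRNAs with a mean of at least 10 counts, and the 5 nuclear copies with the most counts. The 2 genes with the lowest p in each machinery list are named, with values by sample for 2 of the 12. The members and gene lists were chosen with earlier results of these data known. The labels do not say that same-numbered mice belong together, and correlations of their deviations were -0.65, -0.66 and -0.14, so the numbers were not treated as pairs. The ratio for complex V was not computed because its mRNAs were at or under the floor in most libraries. Of the 82 machinery genes listed, 1 was not analysed here.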

Additional observations from a re-analysis of the deposited data

How the results depend on the processing

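The 6 abundant plus-strand mRNAs and both rRNAs were lower in Bahd1-KO under all 20 settings fitted for each, which share the same 6 libraries. Which of them passed a threshold depended on the setting. The number of members with an edgeR adjusted p under 0.05 was 0, but 7 with no filter on low counts (mt-Co2 then being the 1 member called as differentially expressed), 6 with DESeq2's Wald test, 6 with its normal prior, and 0 to 9 when 1 library was left out, with 9 and 1 called without Bahd1-KO 1. The share of all genes with an adjusted p under 0.05 was 11% with no filter, 17.2% and 17.1% with DESeq2 without and with the prior, 30% without Bahd1-KO 1 and 9.4% with total counts. The member called without Bahd1-KO 1 was mt-Tt, with a log2 fold change of -1.22, and leaving out a library gave 0 to 1 such calls. Members lower at an unadjusted p under 0.05 numbered 3 with the offset, 2 with the offset and without the library Bahd1-KO 2, and 7 to 12 when 1 library was left out. Machinery genes with an adjusted p under 0.05 numbered 12 with total counts, 16 with no filter, 19 with DESeq2 with or without the prior, and 0 to 33 when 1 library was left out.

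Signs turned in small differences. mt-Nd6 went to 0.21 with the offset. mt-Tl1 went to -0.0353 with upper-quartile factors, -0.11 with the offset, and -0.32 to 0.38 when 1 library was left out. mt-Tp went to -0.0390, -0.22, and -0.11 to 0.21 under the same 3 settings. The complex I share of mRNA went to 0.36 as a mean of log2 levels over the genes tested. This mean weighs mt-Co2, the only near-absent mRNA tested, as much as each other mRNA. mt-Co2 was tested only through its counts in Bahd1-WT 1. The same setting moved the complex IV share to -1.07, the mRNA to nuclear subunit ratio to -1.73 and the mt-Nd6 ratio to 0.80. The complex I share went to 0.0367 with the offset, and to -0.0334 to 0.0264 when 1 library was left out. The tRNA to mRNA ratio went to -0.18 with the offset. When 1 library was left out it spanned 0.0245 to 0.31, and the rRNA to mRNA ratio spanned -0.13 to 0.28. Apart from the weighting named, the cause was not tested.

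A replicate block on the sample numbers, which the labels do not give as pairs, was also fitted. With it, 10 members were lower at an unadjusted p under 0.05 in place of 11, and 0 had an adjusted p under 0.05. With the offset and the block there were 3, mt-Nd6 was at 0.13, mt-Tl1 at -0.19 and mt-Tp at -0.22.

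Upper-quartile factors moved the median log2 fold change of all genes from -0.06 to -0.20. The 3 against 3 design cannot give an exact p under 0.1. Depth limits the tRNAs and the near-absent mRNAs, whose values are a few counts.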
